A study of Mus musculus with 8 samples.

Results

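Reads recovered with an antibody against N6-methyladenosine (m6A) after knockdown of Mettl14 were examined in αTC1-6 cells, an established mouse pancreatic alpha cell line. The 4 immunoprecipitated (IP) libraries were taken from the 8 libraries of an m6A-eCLIP series, the other 4 being Input libraries of the same cells, and all 33774 sites of the site-count table were kept. Cells of the M14KD group had received an siRNA against Mettl14 (IP replicates 3 and 4). Cells of the SCR group had received a scramble siRNA (IP replicates 1 and 2). Both groups are therefore transfected cells of 1 immortalized line. The number of siRNA sequences, the dose and the time after transfection are not stated in the labels. The labels also do not say whether the replicates are separate cultures. The p-values therefore cover the spread between these libraries, which can be technical. The question was at which sites, genes and places along genes antibody reads differed after the knockdown.

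Mettl14 and Mettl3 form the core of the enzyme that methylates adenosines within messenger RNA, with Mettl3 as the catalytic subunit and Mettl14 as its RNA-binding partner. Most m6A lies in last exons and near stop codons, in a short sequence context of which GGAC is the commonest form, and reader proteins bound to it can speed the decay of the transcript. Antibodies against m6A also bind a related mark, m6Am, on the first transcribed base next to the cap, which is written by another enzyme, Pcif1. In eCLIP ultraviolet light fixes the antibody to the RNA it holds, and each site is a position where crosslinked fragments gather. IP reads at a site depend on how much of the transcript is present as well as on how much of it the antibody binds, so Input values are given beside them.

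Of the 13 sites called higher close to annotated gene starts, 8 lie in the first 50 transcribed bases, where RefSeq's sequence could be read. Their 6 genes are shown because gene starts had the largest median change of the classes of place compared. The sequences are 5′ to 3′ on the gene's strand (RefSeq, GRCm38.p6), 30 bases each, with each called site base in capitals.
Scg2: ccgagccctcactcAgcggcagagaggagc
Srsf3: tcgtgacgccgcgaGaccgagaatctgtag
S100a4: aaacctctctatTcagCacttcctctctct
Magoh: ttacgccagtataaGacgtagaccgcaggc
Rpa3: tgcgggtTgcgagtgttggcggCagaatca
1810037I17Rik: gcgaagcggtcttcAggtttggtctcagtt
The Scg2 stretch is chr1:79439990-79440019 on the minus strand, with the site at base 22 of the transcript. Srsf3 is at chr17:29032679-29032708 on the plus strand with the site at base 34, and Magoh at chr4:107879775-107879804 on the plus strand with the site at base 35. S100a4 is at chr3:90603770-90603799 on the plus strand with sites at bases 13 and 17. Rpa3 is at chr6:8259098-8259127 on the minus strand with sites at bases 22 and 37. The site of 1810037I17Rik is at base 24, in chr3:122924406-122924435 on the plus strand. The site bases differ between genes, and none of the 8 sits in a GGAC. Other forms of the m6A sequence context were not looked for, so these sites may still lie in one. Over the first 50 transcribed bases of all 32851 annotated start windows, 18.9% held GGAC on the gene's strand and 17.4% on the other strand. Among the 330 windows with a tested site in those bases the shares were 21.2% and 18.5%.

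Summed site counts were 10554570 and 10207383 in the M14KD IP libraries and 10918559 and 10573976 in the SCR IP libraries, and the median count per site was 162 to 177. Mettl14 itself had 42 and 25 IP reads over its 2 sites in M14KD, against 78 and 81 in SCR. Both M14KD values lay below both SCR values, and 43.9% of all tested sites were apart in this way in 1 direction or the other. The gene-level edgeR log2 fold change of Mettl14 was -1.17 (SE 0.24, adjusted p = 0.157). It did not pass over all genes, although it did without SCR replicate 1 (adjusted p = 0.0235), SCR replicate 2 (0.0145) or M14KD replicate 3 (0.0063). It missed without M14KD replicate 4 (0.0865) and with the other scalings, other filters and 1 site per run (0.122 to 0.188), and DESeq2 gave it no adjusted p. Mettl3 had no named site. Library distance did not follow the groups closely. The chi-square over degrees of freedom was 1.96 between the M14KD replicates and 2.56 between the SCR replicates, while SCR replicate 1 and M14KD replicate 4 were at 2.51. The largest distance was 5.01, between M14KD replicate 3 and SCR replicate 2. Of 14 alpha cell markers, 11 had sites. The summed marker counts were 28307 and 27743 CPM in M14KD and 24607 and 23379 CPM in SCR, most of them from Gcg. None of 8 beta cell, 8 non-endocrine or 1 PP cell marker genes had a site, and of 3 delta cell markers Rbp4 alone did.

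In the IP libraries, 210 of 33348 tested sites (0.63%) passed an adjusted p of 0.05 in edgeR's quasi-likelihood test. Of these 85 were higher in M14KD (0.255% of sites tested) and 125 were lower (0.375%). Changes were small: called rises ran from 0.35 to 0.92 on the log2 scale (median 0.44) and called falls from -0.93 to -0.36 (median -0.53), while 78.7% of all sites lay within 0.25 of 0. Called sites with 1 gene name numbered 201 in 77 genes. Of these genes 39 had lower sites, 38 had higher sites and 0 had both. In 42 genes a single site was called. The sites are not separate events, since the 210 fall into 112 runs of sites within 100 bases. With 1 site kept per run 46 of 16143 were called, in 29 genes. At all 210 called sites both M14KD libraries lay on 1 side of both SCR libraries, as at 14637 of the 33348 tested sites (43.9%). The direction of called sites with 1 library left out was therefore fixed in advance and is no check. The number of calls did not hold when a library was left out. With libraries scaled by column totals the calls were 65 higher and 175 lower.

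**Figure D1:**
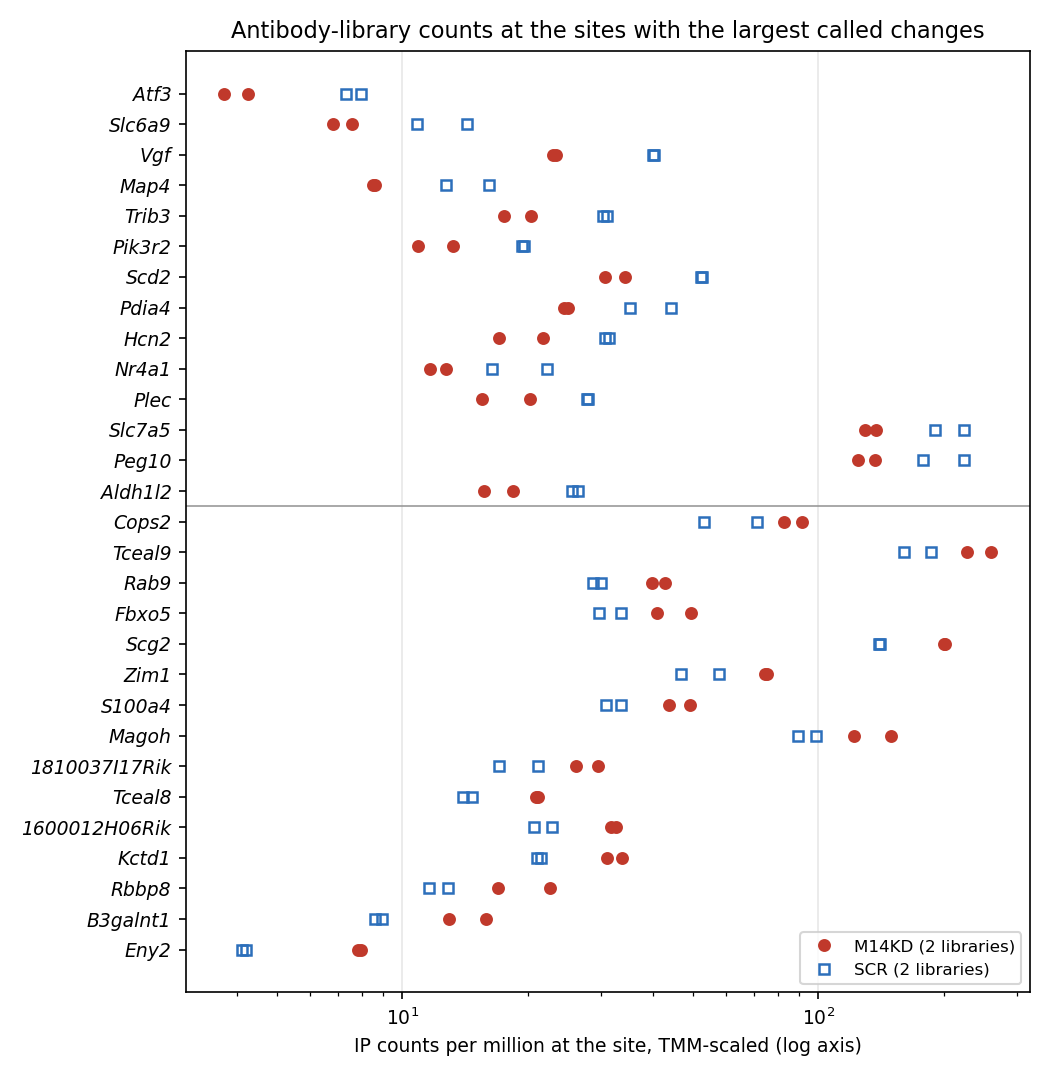
IP counts in CPM (reads scaled to library size with TMM, log axis) in each library at the sites with the largest called falls (above the line) and rises (below it), 1 site per gene; red circles are the 2 M14KD libraries and blue squares the 2 SCR libraries. At each site both M14KD libraries lie on 1 side of both SCR libraries, which the naming rule required. The same held at 43.9% of all tested sites.

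Of 24 measured genes of amino acid transport and synthesis 6 had a called lower site in M14KD, against 39 of all 6381 genes. By sites, 24 of the list's 172 were called lower, against 121 of 31594 with 1 gene name. This list and those below were written with earlier results of these data known, so such contrasts are not tests. Slc7a5, a transporter of large neutral amino acids, fell at 14 of its 15 tested sites. At its site of lowest p (chromosome 8, position 121882436) it had 1351 and 1393 reads in M14KD, against 2083 and 2397 in SCR. The groups were well apart, and the log2 fold change was -0.63 (SE 0.09, adjusted p = 0.00776). Slc6a9, a glycine transporter, fell at 1 of 3 sites. Its called site had 79 and 69 reads in M14KD and 119 and 153 in SCR (log2 fold change -0.80, SE 0.18), a wider spread than in Slc7a5. Asns, asparagine synthetase, fell at 3 of 7 sites. Its named site, 230 bases before the annotated gene end, had 596 and 565 reads in M14KD and 813 and 882 in SCR (log2 fold change -0.47, SE 0.09). Aldh18a1, which makes the precursor of proline, fell at 3 of 21 sites, and Aldh1l2, a mitochondrial folate enzyme, at 2 of 8. Aldh1l2 had 193 and 159 reads at its named site in M14KD, against 290 and 273 in SCR. Gars, glycyl-tRNA synthetase, was the 1 of 13 measured aminoacyl-tRNA synthetases with called falls. It fell at 2 of 7 sites, the named one 71 bases before the gene end. It had 514 and 516 reads in M14KD and 703 and 749 in SCR (log2 fold change -0.42, SE 0.09). Got1, the cytosolic aspartate aminotransferase, was called at 1 of 11 sites (-0.50, SE 0.12).

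The integrated stress response is the programme that the transcription factor Atf4 drives when amino acids run short or proteins misfold. Of its 18 measured members 5 had called falls, against 39 of all 6381 genes. Trib3, a pseudokinase induced by it, fell at 3 of 7 sites. Its named site had 183 and 206 reads in M14KD and 332 in each SCR library (log2 fold change -0.70, SE 0.12, adjusted p = 0.0123). Chac1, which degrades glutathione, fell at 3 of 4 sites, with 298 and 276 reads in M14KD and 425 and 473 in SCR at the named one. Pck2, mitochondrial phosphoenolpyruvate carboxykinase, fell at 5 of 11 sites. At position 55548845 of chromosome 14 it had 636 and 640 reads in M14KD and 932 and 1014 in SCR (log2 fold change -0.53, SE 0.09, adjusted p = 0.0123). Sesn2, a stress-induced inhibitor of mTOR signalling, fell at 4 of 12 sites, and Atf3, a stress-induced transcription factor, at 1 of 5. The Atf3 site was shallow: 39 and 43 reads in M14KD and 80 and 85 in SCR (log2 fold change -0.93, SE 0.21, adjusted p = 0.0439). Atf4 itself had no called site and a gene-level log2 fold change of -0.12.

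Of 20 measured genes of insulin, PI3K and mTOR signalling 2 had called falls, Irs2 and Pik3r2. Of 18 genes of fatty acid and cholesterol synthesis 1 had, Scd2. Among all 6381 genes 39 had called falls. Irs2, the insulin receptor substrate, had 68 tested sites, of which 5 fell. The named one, 1379 bases before the gene end, had 318 and 315 reads in M14KD and 518 and 479 in SCR (log2 fold change -0.58, SE 0.10). Pik3r2, which regulates the lipid kinase PI3K, fell at 2 of 3 sites, with 114 and 134 reads in M14KD and 212 and 210 in SCR at the named one. Adipor2, an adiponectin receptor, fell at 4 of 6 sites. Its named site had 711 and 791 reads in M14KD and 1035 and 1197 in SCR (log2 fold change -0.50, SE 0.10). Scd2, a fatty acid desaturase, fell at 8 of 20 sites, with 321 and 348 reads in M14KD and 572 and 561 in SCR at position 44303260 of chromosome 19 (log2 fold change -0.69, SE 0.10, adjusted p = 0.00818). Among other named genes, Flna, an actin crosslinker, fell at 2 of 13 sites and Actb, cytoplasmic actin, at both of its sites. Actb had 491 and 527 reads in M14KD and 701 and 738 in SCR at the named site (log2 fold change -0.43, SE 0.09). Plec, which links cytoskeletal filaments, and Map4, which binds microtubules, were called at 1 site each. Map4 had 90 and 86 reads in M14KD and 139 and 173 in SCR, the 2 SCR libraries being further apart than the M14KD ones.

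Other genes with falls were scattered in function. Peg10, an imprinted gene of retrotransposon origin, fell at 22 of 61 sites, with 1429 and 1263 reads in M14KD and 2451 and 1915 in SCR at the named site (log2 fold change -0.62, SE 0.10, adjusted p = 0.00864). Vgf, a granule protein and peptide precursor, fell at 2 of 3 sites. It had 240 and 237 reads in M14KD and 438 and 430 in SCR, replicates that differed by less than 10 reads in each group (log2 fold change -0.79, SE 0.11, adjusted p = 0.00776). Reep6, which shapes the endoplasmic reticulum, fell at 5 of 16 sites, Hcn2, a pacemaker cation channel, at 6 of 18, and Jund, a member of the AP-1 family of transcription factors, at 2 of 15. Eef1a1, a translation elongation factor, fell at 3 of 4 sites, the named one 138 bases before the gene end with 1686 and 1749 reads in M14KD and 2474 and 2272 in SCR. Nr4a1, a nuclear receptor induced by stimuli, was called at 1 of 2 sites. Lonp1, a mitochondrial protease, was called at 1 of 4 with 301 and 338 reads in M14KD and 509 and 480 in SCR. Rnf157, a ubiquitin ligase, fell at 2 of 13 sites.

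Scg2 and Ttr, which encode 2 secreted proteins, rose at most or all of their sites. Scg2, secretogranin II of the hormone granule, rose at 17 of 22 sites. At position 79436824 of chromosome 1 it had 2101 and 2033 reads in M14KD, against 1540 and 1496 in SCR (log2 fold change 0.52, SE 0.08, adjusted p = 0.00818). Its start site printed above had 2022 and 1768 reads in M14KD and 1404 and 1376 in SCR, a change of the same size (0.52, SE 0.08). Ttr, transthyretin, a carrier of thyroid hormone that alpha cells express, rose at all 7 tested sites. Its named site had 5914 and 5991 reads in M14KD and 4696 and 4611 in SCR (log2 fold change 0.43, SE 0.08, adjusted p = 0.0205). Gcg, the glucagon gene, had none of its 23 sites called. It summed to 160906 and 153326 reads in M14KD and 142227 and 127714 in SCR, and its gene-level edgeR log2 fold change was 0.29 (SE 0.06, adjusted p = 0.192). It passed without SCR replicate 1 (adjusted p = 0.00545), without SCR replicate 2 (0.0232) and with DESeq2 (0.0462). It missed without M14KD replicate 3 (0.423) or M14KD replicate 4 (0.0784), and with the other scalings, other filters and 1 site per run (0.178 to 0.219).

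Cox6c and Uqcrh, named by their called rises, and Cox7b, which the naming rule did not pick, encode subunits of the respiratory chain. No list of such subunits was counted, and others with tested sites, among them Cox6a1, Ndufc2, Ndufv3 and Uqcr10, had no called site. Cox6c, a subunit of cytochrome c oxidase, rose at all 3 of its sites. The named one had 1873 and 1582 reads in M14KD and 1371 and 1380 in SCR (log2 fold change 0.40, SE 0.09). Cox7b, of the same complex, was called at 1 of 2 sites, 81 bases past the first base of the gene, with 3905 and 3298 reads in M14KD and 3019 and 2767 in SCR. Uqcrh, a subunit of the cytochrome bc1 complex, rose at both of its sites, at 57 and 80 bases past the first base. The nearer had 2638 and 2098 reads in M14KD and 1910 and 1854 in SCR (log2 fold change 0.40, SE 0.09). In these genes M14KD replicate 3 stood above replicate 4 by more than the SCR replicates differed. Mitochondrially encoded genes had 0 called sites among 122 tested, a number at which the 0.63% called over all sites would give fewer than 1.

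Of 25 measured splicing and RNA processing genes 3 had a called rise, namely Srsf3, Magoh and Hnrnpa2b1, against 38 of all 6381 genes. Other genes named by their rises act in cell division or DNA repair, for which no list was counted. Fbxo5, an inhibitor of the anaphase-promoting complex, rose at 3 of 12 sites, with 516 and 415 reads in M14KD and 367 and 318 in SCR at the named one. Rpa3, the small subunit of the single-strand DNA-binding protein RPA, rose at 2 of 3 sites, both printed above. At base 37 it had 1932 and 1640 reads in M14KD and 1433 and 1343 in SCR (log2 fold change 0.44, SE 0.09). Rbbp8, a DNA repair factor, was called at 1 of 9 sites. It had 236 and 172 reads in M14KD and 141 and 124 in SCR. Srsf3, a splicing factor, was called at its start site with 834 and 665 reads in M14KD and 629 and 524 in SCR, which barely kept apart (log2 fold change 0.45, SE 0.10, adjusted p = 0.0475). Magoh, a core protein of the exon junction complex, had 1565 and 1234 reads at its start site in M14KD and 1081 and 954 in SCR (log2 fold change 0.53, SE 0.10, adjusted p = 0.0156). Gemin6, of the complex that assembles spliceosomal particles, rose at 4 of 7 sites, the named one with 998 and 913 reads in M14KD and 754 and 729 in SCR.

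The remaining rises were mixed. S100a4, a calcium-binding protein, rose at both of its sites. The one at base 13 had 514 and 442 reads in M14KD and 337 and 359 in SCR (log2 fold change 0.53, SE 0.10, adjusted p = 0.0253). Tceal9, an X-linked gene of the transcription elongation factor A-like family, rose at both of its sites, and its relative Tceal8 at 1 of 3. Tceal9 had 2723 and 2305 reads in M14KD and 2046 and 1719 in SCR at the named site. The uncharacterised 1600012H06Rik rose at 7 of 9 sites, with 331 reads in each M14KD library and 250 and 222 in SCR at the named one. Eny2, which acts in transcription and in the export of mRNA, had the largest fold but the fewest reads, 83 and 79 in M14KD against 46 and 44 in SCR (log2 fold change 0.92, SE 0.20, adjusted p = 0.0421). Zim1, an imprinted zinc finger gene, was called at 1 of 44 sites with 786 and 754 reads in M14KD and 630 and 500 in SCR. B3galnt1, a glycosyltransferase, had 135 and 161 reads at its called site in M14KD and 98 and 92 in SCR. Kctd1 was called at 1 of 5 sites, at a position shared with the spans of 4933424G05Rik and Mrpl27-ps. Rab9, a small GTPase of late endosomes, and Cops2, a subunit of the COP9 signalosome, were called at 1 of 5 sites each. Rpl36al, a ribosomal protein gene, rose at 2 of 5 sites, Rpp25l at 2 of 11 and AA414768 at 2 of 15. The pseudogene Dynlt1-ps1 was called at 1 of 2 sites. Rpl36al, Cox6c, Actb and Eef1a1 belong to families with near-identical copies, and Dynlt1-ps1 is such a copy, so reads at these genes cannot be assigned with certainty.

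Among 2409 genes with at least 5 tested sites, the median SD of the log2 fold change within a gene was 0.12. The SD over all their sites pooled was 0.20, which is not the same measure. Most of these genes had sites on both sides of 0. Of the 52 genes of that size with a called site, 42 had every site on 1 side of 0, against 28.4% of all 2409 genes. The 52 were picked from the same values for a large change, so this contrast does not show that sites moved together. Slc7a5 ranged from -0.65 to -0.47 over 15 sites and Ttr from 0.39 to 0.44 over 7. Scg2 ranged from 0.31 to 0.52 over 22 sites in 11 runs. Neighbouring sites may share reads, so such evenness is not independent repeats. Pdia4, an endoplasmic reticulum enzyme that forms disulfide bonds, was the opposite case. Its called site, 240 bases before the gene end, had 262 and 248 reads in M14KD and 385 and 474 in SCR (log2 fold change -0.68, SE 0.12, adjusted p = 0.0134), while its 12 sites had a median of 0.01 and 6 lay above 0. Rbbp8 ran from -0.40 to 0.69 over 9 sites, of which 8 lay above 0. Irs2 had 64 of 68 sites below 0, with a median of -0.15, an SD of 0.12 and called sites down to -0.58. Hcn2 had 17 of 18 sites below 0, with a median of -0.26 and an SD of 0.20.

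**Figure D2:**
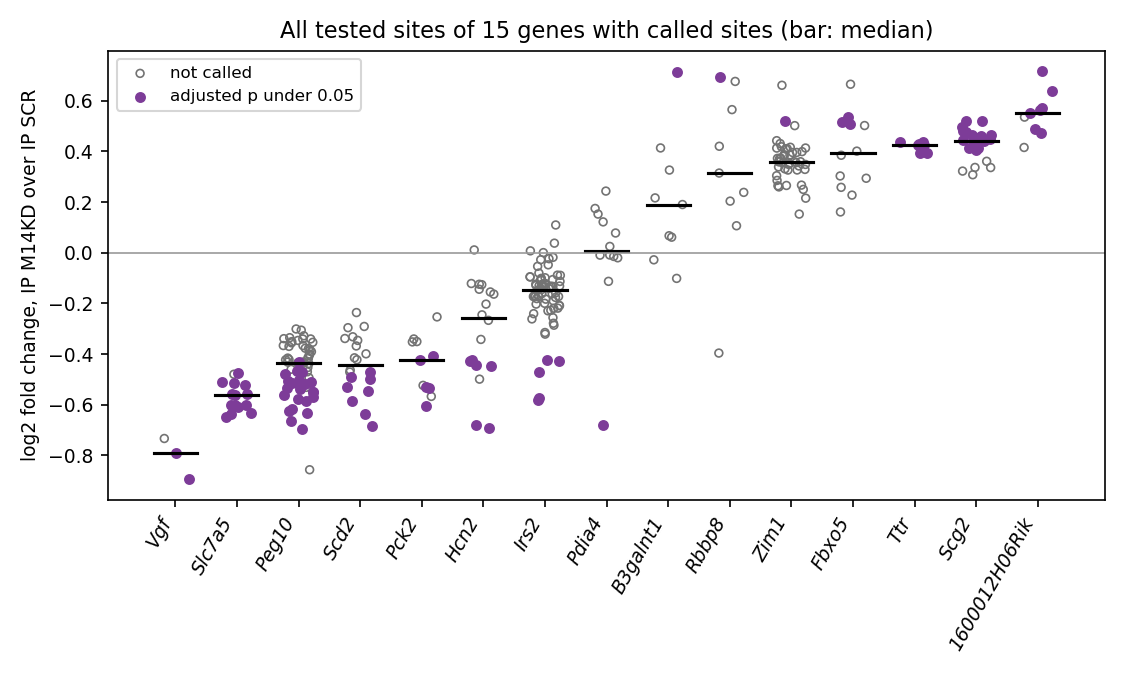
Log2 fold change (M14KD over SCR, IP libraries) at every tested site of 15 genes with called sites; filled points passed an adjusted p of 0.05 and bars mark each gene's median. Slc7a5, Ttr and Scg2 keep to narrow bands, while Pdia4 and Rbbp8 are spread more widely, with SDs of 0.24 and 0.34.

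Sites at gene starts were shifted as a class. There were 711 tested sites, in 487 genes, within 100 bases downstream of an annotated start. They took 4.60% and 4.29% of the reads at tested sites in the M14KD IP libraries, against 3.99% and 4.05% in the SCR ones. The groups do not overlap, but 2 libraries against 2 allow no exact permutation p below 0.333. The median log2 fold change of these sites was 0.14 (quartiles 0.02 and 0.26) and 557 of 711 (78.3%) lay above 0, against a median of 0.01 and 51.2% over all sites. In the class 13 sites, in 9 genes, were called higher (1.83%, against 0.255% of all sites) and 0 lower (against 0.375% of all sites, a share that gives few calls in a class of this size). The shift was uneven between the M14KD libraries: replicate 3 exceeded replicate 4 by a median of 0.09 at these sites, while the median difference of SCR replicate 1 minus replicate 2 was -0.0012. The class median was 0.10 without M14KD replicate 3 and 0.18 without M14KD replicate 4. The Input libraries shared part of it, with shares of 5.88% and 5.83% in M14KD and 5.55% and 5.65% in SCR and a median log2 fold change of 0.06 over 688 sites. The median of IP change minus Input change was 0.08, and of the 13 called sites only the 2 of Rpa3 had an unadjusted p under 0.05 for that difference (0.33 at base 37 and 0.42 at base 22).

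**Figure D3:**
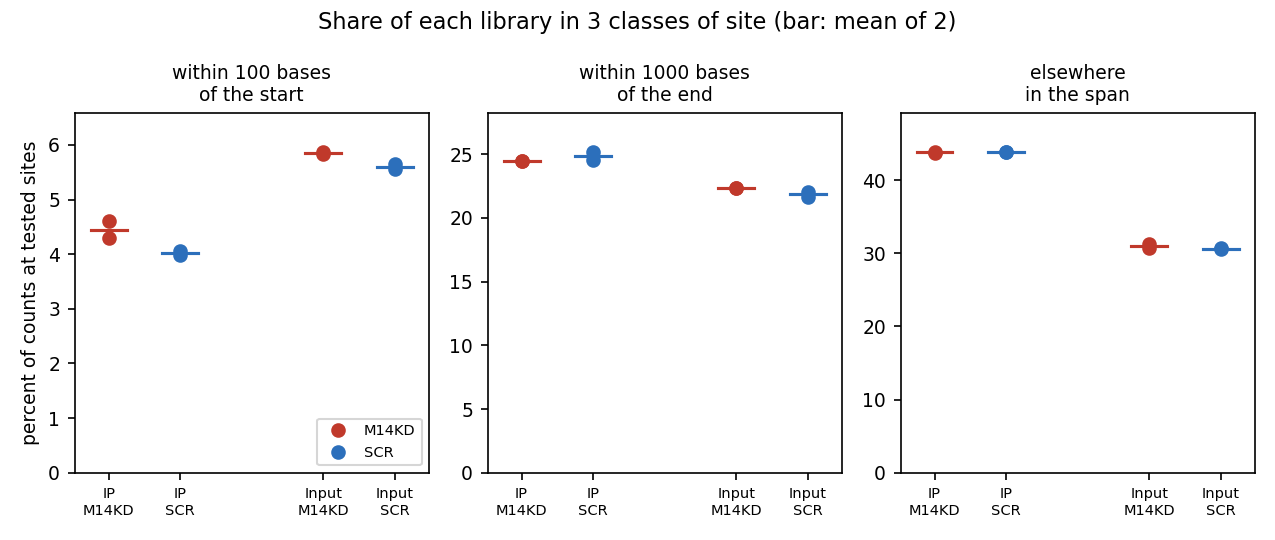
Percent of the reads at tested sites that lay in each class of site, for each IP and Input library; points are libraries, bars the mean of 2, and axes start at 0. At gene starts the M14KD IP libraries are at 4.60% and 4.29% and the SCR IP libraries at 3.99% and 4.05%, while the shares of the other 2 classes differ by little for their size.

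The start shift was also seen within genes. In 299 genes with tested sites both at the start and farther on, the start median exceeded the median of the gene's other sites by 0.10 in IP (median over genes), and was the higher in 210 of them (70.2%). In Input the same difference was -0.01 over 282 genes. Where every other site lay more than 1000 bases from the start, the IP difference was 0.12 over 211 genes and the Input difference -0.02 over 197. By distance, the median IP log2 fold change was 0.15 in the first 25 bases, 0.14 from 26 to 50 and 0.14 from 51 to 100. It was 0.07 in each of the intervals from 101 to 200, 201 to 500 and 501 to 1000, where Input medians were 0.01, 0.00 and 0.02. Calls in these 3 intervals were 3 of 209 sites (1.44%), 0 of 368 and 10 of 784 (1.28%) higher, with 0 lower in each. Over all sites 0.255% were called higher and 0.375% lower, so called rises above the overall share were not limited to the first 100 bases. By the first transcribed base of the RefSeq start, the medians were 0.18 for A (132 sites), 0.14 for G (206), 0.12 for T (35) and 0.08 for C (53), with Input medians of 0.11, 0.04, -0.01 and 0.11. The quartile ranges of these 4 groups overlap, annotated starts need not be the starts used in these cells, and neighbouring sites share genes, so no order is read from them. Start sites whose first 50 bases held GGAC had a median of 0.15 (95 sites) and the others 0.14 (331).

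**Figure D4:**
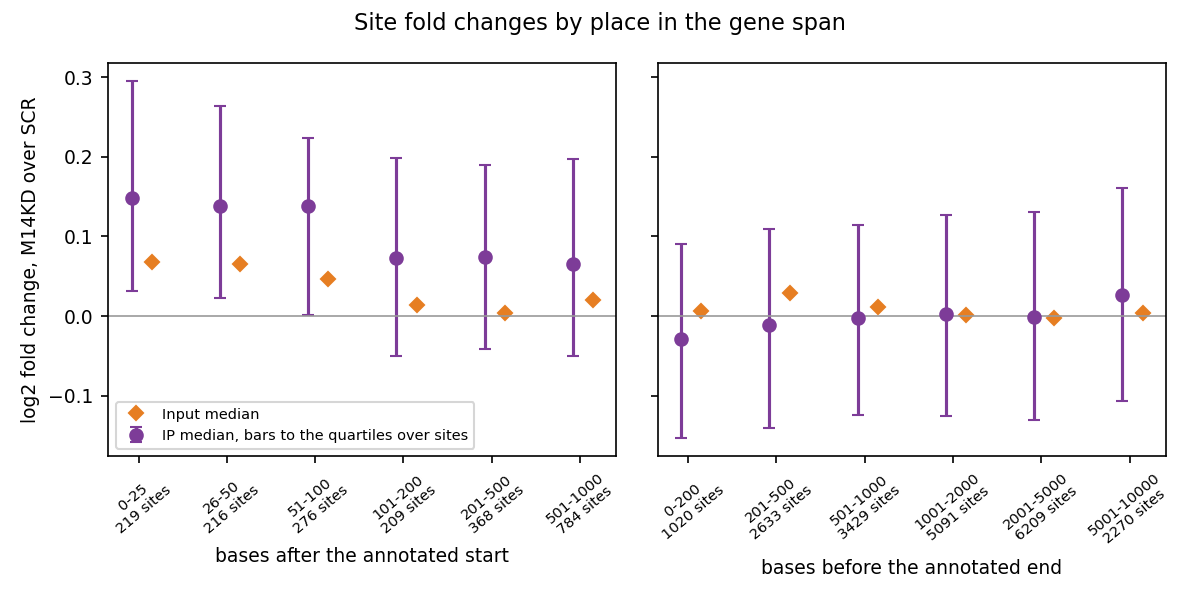
Median log2 fold change (M14KD over SCR) of sites by distance after the annotated start and before the annotated end, with bars to the quartiles over IP sites and diamonds for the Input median; the number of IP sites stands under each interval. The IP medians are 0.14 to 0.15 in the first 100 bases and between -0.03 and 0.03 over the 10000 bases before the end.

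Sites near gene ends, and the sites that the antibody enriched most, had medians near 0. The 7076 sites within 1000 bases of a gene end had a median of -0.01, and the 17849 sites elsewhere in known spans one of 0.01. Exons were not used, so the end class does not stand for the last exons and stop codon regions where most m6A lies. Its median log2 IP over Input was 0.44, against 0.83 elsewhere in spans. Called sites were 13 higher and 38 lower near gene ends (0.721% of the class), and 39 higher and 24 lower elsewhere (0.353%), against 0.63% of all sites. The 5958 tested sites in genes of unknown strand could not be placed, and 15 of them were called higher and 59 lower (1.24%). The contrast between ends and elsewhere therefore leaves out many of the called falls. In the last 200 bases the median was -0.03, with 2 sites called higher and 10 lower of 1020. Sites were also split into 4 equal classes by IP over Input, averaged over the M14KD and SCR groups. The median IP log2 fold changes were 0.0118, -0.0039, 0.0005 and 0.0112, lowest class to highest. Calls were 41 higher and 28 lower in the lowest class (0.828% of its sites, against 0.63% overall), where IP over Input was under -0.12. They were 12 higher and 27 lower in the next (0.468%) and 12 higher and 18 lower in the third (0.36%). In the highest class, where IP over Input was above 1.39, they were 20 higher and 52 lower (0.864%). The median IP count per site was 122.5 in the lowest class and 279 in the highest, and the median SE 0.159 and 0.116. The shares called therefore rest on unlike precision. Since every scaling rests on the reads at these sites, a fall shared by all sites would not appear in any of these median log2 fold changes.

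Counts summed over each gene's sites gave 0 of 6381 genes past an adjusted p of 0.05 (0%), against 900 at an unadjusted p under 0.05 and 45 that DESeq2 called. Without 1 library the edgeR count was 187 (SCR replicate 1), 27 (SCR replicate 2), 11 (M14KD replicate 3) or 169 (M14KD replicate 4). The lowest adjusted p, 0.0615, was that of Vgf, with 383 and 369 summed reads in M14KD and 703 and 671 in SCR (log2 fold change -0.80, SE 0.09). Vgf passed with DESeq2, with 1 site per run, with each of the 3 other scalings and without any 1 of the 4 libraries, but not with the filter on low counts dropped (adjusted p = 0.0732) or made stricter (0.0583). Next below 0 came Slc7a5 (-0.56, SE 0.08), Trib3 (-0.64, SE 0.10), Chac1 (-0.57, SE 0.09), Scd2 (-0.47, SE 0.07), Aldh1l2 (-0.53, SE 0.09), Adipor2 (-0.49, SE 0.08), Atf3 (-0.73, SE 0.13), Pck2 (-0.43, SE 0.08) and Asns (-0.39, SE 0.07). Above 0 the lowest p values were those of Scg2 (0.42, SE 0.06), Ttr (0.42, SE 0.06), 1600012H06Rik (0.53, SE 0.08), S100a4 (0.52, SE 0.09) and AA414768 (0.36, SE 0.07). They were followed by Rpl36al (0.38, SE 0.07), Rpa3 (0.40, SE 0.08), Dynlt1-ps1 (0.39, SE 0.08), Tceal9 (0.49, SE 0.10) and Magoh (0.48, SE 0.09). None of these values passed over all genes.

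For the gene lists, a gene is called nominally lower or nominally higher in M14KD where its log2 fold change was below or above 0 with an unadjusted p under 0.05. Of all 6381 genes 423 (6.63%) were nominally lower and 477 (7.48%) nominally higher, and the median gene was at 0.01. Of 24 measured genes of amino acid transport and synthesis, 14 were nominally lower and 1 higher, and the median log2 fold change was -0.21. Beyond the genes named, Gpt2, an alanine aminotransferase (-0.47, SE 0.12), Slc7a1, a cationic amino acid transporter (-0.36, SE 0.09), and Shmt2, a serine hydroxymethyltransferase (-0.29, SE 0.10), were among the 14, and Mat2a, which makes S-adenosylmethionine, was the 1 nominally higher (0.33, SE 0.09). Slc1a4, Slc38a2, Psat1, Mthfd2 and Got2 completed the 14, between -0.22 and -0.17. Of 13 aminoacyl-tRNA synthetases, which charge tRNAs with amino acids, 6 were nominally lower and 0 higher, with a median of -0.26. They were Wars (-0.48, SE 0.13), Cars (-0.35, SE 0.12), Aars (-0.31, SE 0.10), Gars (-0.29, SE 0.08), Sars (-0.29, SE 0.07) and Eprs (-0.26, SE 0.08). Of 18 genes of the integrated stress response, 8 were nominally lower and 0 higher (median -0.20), the further ones being Cebpb, Ppp1r15b and Nupr1. In Input the medians of these 3 lists were -0.19, -0.05 and -0.31. The lists were written with earlier results of these data known.

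Of 15 genes of endoplasmic reticulum chaperones and the unfolded protein response, 3 were nominally higher and 2 lower, with a median of 0.00. Those higher were the chaperone Hspa5 (0.23, SE 0.08), its co-chaperone Dnajb9 (0.22, SE 0.08) and the secreted factor Manf (0.19, SE 0.07), and those lower were P4hb (-0.18, SE 0.06) and Atf6 (-0.26, SE 0.09). Of 20 genes of insulin, PI3K and mTOR signalling, 7 were nominally lower and 0 higher (median -0.08). The median was -0.1704 without M14KD replicate 4, -0.1167 without SCR replicate 1 and -0.0504 without M14KD replicate 3. The 7 were Pik3r2 (-0.60, SE 0.12), the translation repressor Eif4ebp1 (-0.38, SE 0.09), the kinase Mtor (-0.34, SE 0.08), its partners Rptor (-0.32, SE 0.10) and Mlst8 (-0.27, SE 0.10), Eif4ebp2 (-0.21, SE 0.09) and Irs2 (-0.16, SE 0.06). Rps6kb1 (0.40) and Pik3r1 (0.39) had values above 0 that were not nominally higher. Of 18 genes of fatty acid and cholesterol synthesis 6 were nominally lower and 0 higher (median -0.15, and -0.2507 without M14KD replicate 4 or -0.0939 without M14KD replicate 3). They included Scd2, fatty acid synthase Fasn (-0.36, SE 0.11), the sterol regulator Srebf2 (-0.31, SE 0.12), the desaturase Fads1 (-0.29, SE 0.08) and Scap (-0.28, SE 0.11).

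**Figure D5:**
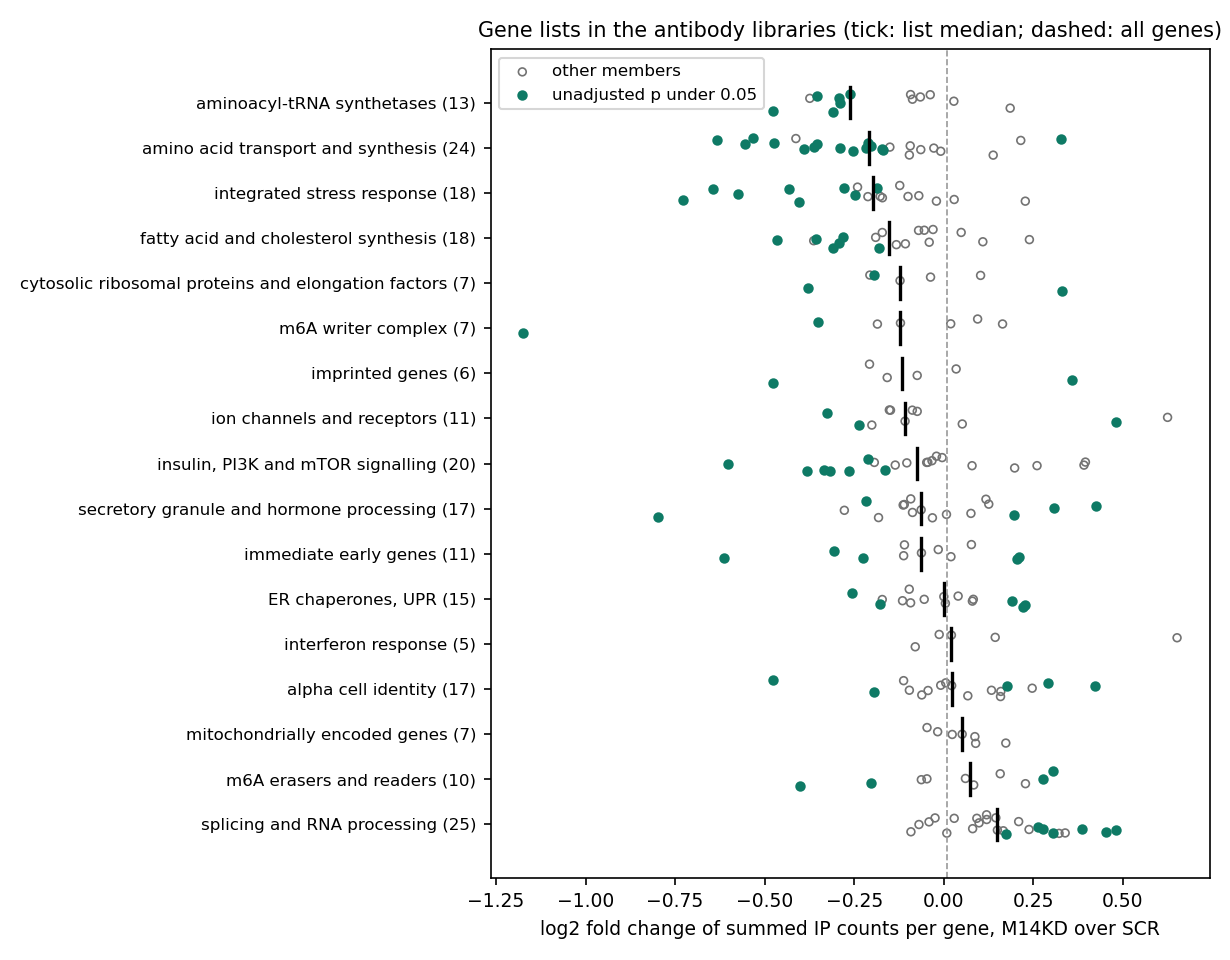
Log2 fold change of summed IP counts (M14KD over SCR) for each measured gene of 17 lists, with the number of genes in brackets; filled points had an unadjusted p under 0.05, ticks mark list medians and the dashed line the median of all genes. Aminoacyl-tRNA synthetases are centred at -0.26 and splicing genes at 0.15, and several lists with medians near 0 hold genes far to both sides.

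Of 25 splicing and RNA processing genes 21 had values above 0, and 7 were nominally higher and 0 lower (median 0.15). The 7 were Magoh and Srsf3, Hnrnph1 (0.38, SE 0.12), Hnrnpa2b1 (0.31, SE 0.10), Hnrnpc (0.28, SE 0.10), Srsf7 (0.26, SE 0.08) and Srsf6 (0.17, SE 0.07), RNA-binding splicing regulators in the main. The list's Input median was 0.16. Its IP median was 0.2654 without SCR replicate 1 and 0.0759 without SCR replicate 2. Among 17 alpha cell identity genes Gcg, Ttr and the islet transcription factor Isl1 (0.18, SE 0.07) were nominally higher, and Peg10 (-0.48, SE 0.10) and the transcription factor Nkx2-2 (-0.19, SE 0.07) nominally lower (median 0.02). Pax6 (0.13), Neurod1 (0.16) and Rfx6 (0.25), further islet transcription factors, were neither. Among 17 granule and hormone processing genes Scg2, Resp18 (0.31, SE 0.10) and Chgb (0.20, SE 0.07) were nominally higher and Vgf and Ptprn (-0.22, SE 0.08) nominally lower (median -0.06). Chga, the other main granin, had 0.12. Of 7 measured writer genes Mettl14 and Pcif1, the cap-adjacent m6Am methyltransferase (-0.35, SE 0.12), were nominally lower, and Wtap (0.16), Virma (0.09), Cbll1 (0.02), Rbm15 (-0.12) and Rbm15b (-0.19) were neither lower nor higher. Among 10 erasers and readers Hnrnpa2b1 and Hnrnpc were nominally higher, and Prrc2a (-0.20, SE 0.08) and Elavl1 (-0.40, SE 0.17) nominally lower. The erasers Fto (-0.05) and Alkbh5 (-0.06) were neither, like the readers Ythdf1 (0.06), Ythdf2 (0.08), Ythdf3 (0.16) and Ythdc1 (0.23).

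The other lists held few such genes. Of 11 immediate early genes Jund (-0.31, SE 0.07), Nr4a1 (-0.61, SE 0.16) and Fosl2 (-0.23, SE 0.09) were nominally lower, and the antiproliferative genes Btg1 (0.20, SE 0.08) and Btg2 (0.21, SE 0.06) nominally higher. Of 7 ribosomal protein and elongation factor genes Eef1a1 and Eef2 (-0.20, SE 0.07) were nominally lower and Rpl37a (0.33, SE 0.09) nominally higher. Of 11 ion channels and receptors Hcn2 and the potassium channel Kcnh2 (-0.33, SE 0.08) were nominally lower and the glutamate receptor subunit Gria2 (0.48, SE 0.17) nominally higher. Of 6 imprinted genes Peg10 was nominally lower and Zim1 (0.36, SE 0.11) nominally higher. Of 3 long noncoding RNAs Neat1 (0.24, SE 0.09) was nominally higher. None of 7 mitochondrially encoded genes (median 0.05) or 5 interferon response genes (median 0.02) was nominally lower or higher.

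Input reads at the called sites mostly lay on the same side. Of 125 sites lower in IP, 123 could be tested in Input, where 122 lay below 0. Of the 123, 79 had an unadjusted edgeR p under 0.05 in Input and 2 passed the adjusted threshold. The median Input log2 fold change of the 123 was -0.40. Of 85 sites higher in IP, all could be tested in Input, where 83 lay above 0, with a median of 0.31. Of the 85, 50 had an unadjusted edgeR p under 0.05 in Input and 11 passed. The share of all tested sites with IP and Input on the same side is not given here. In all 28 of 30147 Input sites passed (0.0929%). The IP change differed from the Input change at 0 of 33356 sites (0%) in edgeR's test, whose lowest adjusted p was 0.891, and at 0 with DESeq2, which does not show that the IP and Input changes were equal. The edgeR p was under 0.05 before adjustment at 1242 sites (3.72%). For the called sites this p was under 0.05 at 6 of 125 lower and 6 of 85 higher ones, each with the IP change the larger. Called sites were picked for a large IP change, which enters the difference, so that direction was favoured in advance. Pdia4 was among the 6 lower ones, with an Input log2 fold change of -0.13 (SE 0.17) at its called site against -0.68 in IP. At the Vgf site the Input value was -0.80 (SE 0.27) against -0.79 in IP, and at the named Scg2 site 0.47 (SE 0.09) against 0.52. Fewer transcripts and less antibody binding per transcript cannot be told apart from the IP counts alone at these genes.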

How the data were processed

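The deposited counts are whole numbers of reads at each site, not normalized, in 1 column for each of 8 libraries per the file headers. The tools named in the submitters' processing notes are STAR, cutadapt and UMI-tools, and the build is mm10. For versions, site calling, the counting window, strand use and reads with several matches, the method is not given in the sources used here. It is therefore not known whether 1 read was counted at several sites, or whether a read came from a gene or from one on the opposite strand.

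Sites were named by RefSeq gene spans of the same assembly: 31928 of 33774 (94.5%) had 1 name, 1272 lay in several protein-coding spans and 560 in none. Strand came from RefSeq's table of start windows and was known for 81.1% of named sites. Exons were not used here. No other per-sample column was present (0 unused).

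Counts were tested with edgeR 4.0.16 in R 4.3.3 (filterByExpr, TMM scaling, quasi-likelihood F-test, Benjamini-Hochberg adjustment over all features tested, threshold 0.05), after a check on simulated data. M14KD was compared with SCR in the IP libraries, in the Input libraries, and as IP change minus Input change in 1 model of all 8. Each SE is the size of the log2 fold change divided by the root of its F statistic. IP over Input is a log2 ratio averaged over the M14KD and SCR groups, with a prior count of 2. Alternatives were DESeq2 1.42.0, other scalings, other filters, 1 site per run, a replicate block and each library left out. The gene lists, groups and the naming rule were chosen with earlier results of these data known. The naming rule took called sites at which both M14KD libraries lay on 1 side of both SCR libraries. All 210 called sites did, as did 43.9% of all tested sites. Among them the rule named, at its lowest p, every gene with at least 2 called sites and the 15 largest changes each way. It then named, at gene level, the 10 lowest p each way and list members with an unadjusted p under 0.05. Cox7b and Lonp1 are given although the rule did not pick them. The results of some named sites and genes are not reported here. All scalings use site counts, so a change shared by all sites cannot be seen.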

Additional observations from a re-analysis of the deposited data

How the results depend on the processing

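Each of the 52 named sites kept its direction under every alternative that gave it a value. With a library left out the direction was fixed in advance, because both M14KD libraries lay on 1 side of both SCR ones at these sites. The adjusted threshold was missed by 26 of them with DESeq2, 10 with no filter, 8 with scaling on the least enriched 25% of sites, 4 with column totals, 1 with all 8 libraries in 1 model, 30 without M14KD replicate 4, 25 without SCR replicate 2, 0 without SCR replicate 1 and all 52 without M14KD replicate 3, and by 8 of the 26 kept with 1 site per run. Called IP sites numbered 117 with DESeq2 and 46 with 1 site per run, and 0 to 1422 with a library left out. Called genes numbered 45 with DESeq2, 1 with each other scaling and with 1 site per run, and 11 to 187 with a library left out. Input sites ranged from 0 to 40. Input and IP libraries of 1 number deviated together weakly (correlations 0.22 for SCR and 0.12 for M14KD), and with the number as a block the IP change minus the Input change was called at 1 site, as it was without replicate 2, otherwise 0. Column totals lowered the medians to -0.0122, -0.0278, -0.0233 and -0.0129 for the 4 classes of IP over Input, lowest to highest, to -0.0339 near gene ends, to -0.0177 elsewhere in spans and to 0.0517 for erasers and readers. Left-out libraries moved these 4 medians over 0.0015 to 0.0144, -0.007 to -0.0019, -0.0025 to 0.0009 and 0.0012 to 0.0137. They gave -0.0251 to 0.0013 near ends, -0.006 to 0.0107 elsewhere and, in ranges chosen after seeing the data, 0.0979 to 0.1811 at gene starts. List medians ran from -0.2528 to -0.1684 for amino acids, -0.287 to -0.1793 for aminoacyl-tRNA synthetases, -0.2972 to -0.1662 for the stress response, -0.0582 to 0.012 for chaperones, -0.1704 to -0.0504 for insulin signalling and -0.113 to -0.0181 for granules. They ran from 0.0297 to 0.0938 for alpha identity, -0.1658 to -0.0157 for immediate early genes, 0.0759 to 0.2654 for splicing, -0.2507 to -0.0939 for lipid synthesis, -0.2013 to -0.0523 for ribosomal and elongation genes, -0.1519 to -0.0937 for channels, 0.0393 to 0.1196 for interferon genes and 0.0258 to 0.0591 for erasers and readers. The causes were not tested. With a median IP count of 162 to 177 per site and 2 libraries a group, the median SE of a site was 0.14, and Input sites, at a median of 31 to 34 reads, were less precise.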
